A study of Mus musculus with 2 samples.

Results

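The 43 genes described here encode proteins of the G2 phase, mitosis and cytokinesis, from the kinase Cdk1 and its B-type cyclins to the proteins that build kinetochores and divide the cell. They were chosen by name, as the gene probes whose gene name in both array files equals 1 of the 43 symbols. That gave 63 probes in 72 spots, out of 34844 gene names and 55681 gene probes on the array. The data compare pancreatic islets of RbΔK7 mutant mice, a knock-in that makes the retinoblastoma protein Rb resistant to phosphorylation, with islets of control mice. Islets were released with collagenase, picked by hand and frozen at once. The labels give 2 control and 2 mutant samples as biological replicates, and 1 control (Cy3 dye) and 1 mutant (Cy5 dye) shared each of 2 Agilent arrays, called replicate 1 and replicate 2. Age, sex, the genetic background and whether islets of several animals were pooled are not given in the sources used here. No dyes were exchanged, so genotype and dye cannot be told apart for any single probe. With 2 arrays the precision of every value is low.

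Rb restrains E2F factors and with them the genes of S phase entry. Genes of G2 and mitosis are switched on later in the cycle, largely through a promoter element called the cell cycle genes homology region (CHR). In resting cells the DREAM complex, built on the Rb relatives p107 and p130 and on the MuvB core, binds CHRs and keeps these genes silent. In cycling cells MuvB joins B-MYB and then FOXM1 and activates them, often together with NF-Y bound at CCAAT boxes. Most islet cells of an adult mouse are not dividing, and transcripts of this class are usually scarce there.

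CHR letters were common in the promoters of these genes. The windows below are the 120 bases before the RefSeq start of each gene, read 5′ to 3′ on the gene's strand (build GRCm38.p6), with CHR letters (TTTGAA or TTCGAA) and CCAAT letters in capitals, on either strand. Cdk1, Cdc20, Ube2c, Top2a and Mki67 are shown because their CHR letters lie before the start. Spc25 and Mad2l1 are shown because their mutant over control ratios were the highest of the genes tested.

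Cdk1: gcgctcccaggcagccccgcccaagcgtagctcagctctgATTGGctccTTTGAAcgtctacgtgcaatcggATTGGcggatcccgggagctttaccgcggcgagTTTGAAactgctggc
Cdc20: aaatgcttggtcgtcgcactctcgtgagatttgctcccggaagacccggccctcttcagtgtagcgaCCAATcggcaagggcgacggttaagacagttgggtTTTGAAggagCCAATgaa
Ube2c: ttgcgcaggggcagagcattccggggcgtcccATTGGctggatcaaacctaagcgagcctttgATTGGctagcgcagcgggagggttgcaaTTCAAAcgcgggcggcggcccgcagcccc
Top2a: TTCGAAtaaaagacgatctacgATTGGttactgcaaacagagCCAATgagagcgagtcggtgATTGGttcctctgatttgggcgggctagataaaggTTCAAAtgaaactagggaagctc
Mki67: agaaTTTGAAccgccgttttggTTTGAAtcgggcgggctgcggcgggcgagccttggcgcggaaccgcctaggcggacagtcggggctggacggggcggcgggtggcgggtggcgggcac
Spc25: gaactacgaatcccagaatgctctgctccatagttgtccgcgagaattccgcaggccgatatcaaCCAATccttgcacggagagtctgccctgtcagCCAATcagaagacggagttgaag
Mad2l1: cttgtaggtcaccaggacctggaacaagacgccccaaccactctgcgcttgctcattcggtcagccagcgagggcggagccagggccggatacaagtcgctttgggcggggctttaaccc

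These windows lie at chr10:69352913-69353032 (minus strand) for Cdk1, chr4:118437344-118437463 (minus) for Cdc20 and chr2:164769809-164769928 (plus) for Ube2c. Those of Top2a, Mki67, Spc25 and Mad2l1 lie at chr11:99024190-99024309 (minus), chr7:135716380-135716499 (minus), chr2:69206214-69206333 (minus) and chr6:66535101-66535220 (plus). In Cdk1, Ube2c and Top2a the CHR letters nearest the start follow a row of CCAAT letters, and in Cdc20 a CCAAT box stands on each side of them. Neither set of letters is in the window printed for Mad2l1, which says nothing of the factors that act on it. Over the full RefSeq window, 250 bases before to 50 after the start, 26 of the 35 genes with an entry (74.3%) held a CHR, against 19.4% of 27025 genes of the genome with an entry. CCAAT letters were in 80.0% against 37.9%, and both together in 68.6% against 7.70%. An E2F site, searched as TTTCCCGC, TTTGGCGC, TTTCGCGC or TTTGCCGC on both strands, was in 1 of the 35 windows (2.86%, that of Cdk1), against 2.32% of all genes and 33.3% of 39 G1/S and DNA replication genes. Those G1/S genes held a CHR in 20.5% and CCAAT letters in 56.4%. The 90 windows of further G2/M and mitosis genes held a CHR in 54.4%, CCAAT letters in 56.7% and an E2F site in 15.6%. The CHR letters of Spc25 lie after the start and so outside the letters shown, as in 14 of the 26 genes with a CHR. In 24 of the 26 the letters began within 50 bases of the start, on either side of it. A match is a run of letters and not a shown binding site.

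**Figure D1:**
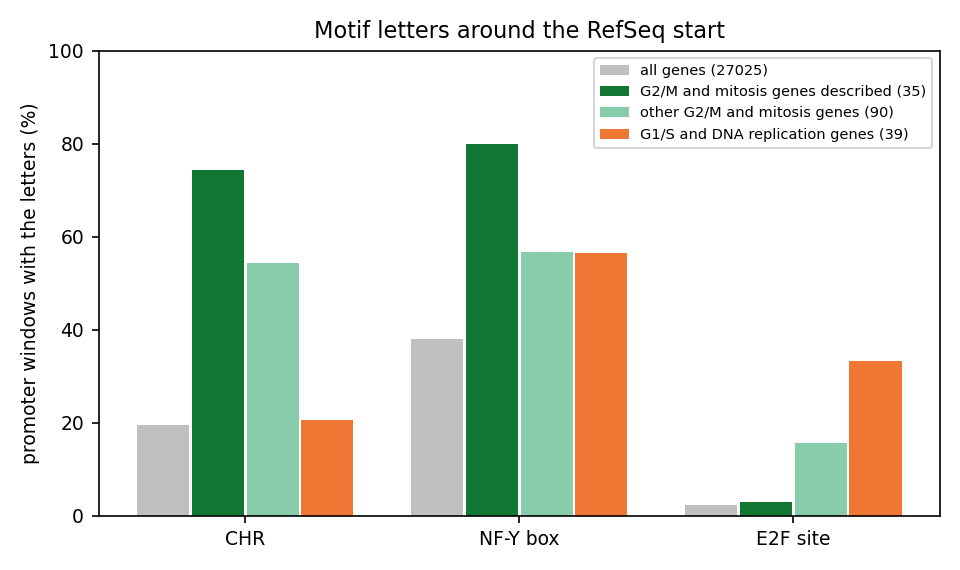
Percentage of promoter windows (250 bases before to 50 after the RefSeq start) that hold the letters of a CHR, an NF-Y box (CCAAT) or an E2F site, on either strand, in each gene group, with the number of windows in brackets. CHR letters were in 74.3% of the G2/M and mitosis genes described and in 20.5% of the G1/S and DNA replication genes, and E2F letters in 2.86% and 33.3%.

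Many of the 43 genes were at or below the limit of detection, and least often so in replicate 2. Of the 63 probes, 15 were well above background in the control sample of replicate 1 (23.8%, against 35.9% of all gene probes) and 22 in its mutant partner (34.9%, against 39.7%). In replicate 2 they numbered 33 in the control (52.4%, against 36.9%) and 44 in the mutant (69.8%, against 46.9%). The probes were thus detected less often than probes in general in both samples of replicate 1 and more often in both samples of replicate 2. Of the genes not tested below, 8 were above background in the mutant of replicate 2 alone. That sample also had the highest share of all gene probes above background (46.9%). The log2 ratios of these 8 on that array lay on both sides of 0, as -0.11 for Cks2 and 0.34 for Melk. In bulk RNA, fewer dividing cells and less of these RNAs per dividing cell cannot be told apart.

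**Figure D2:**
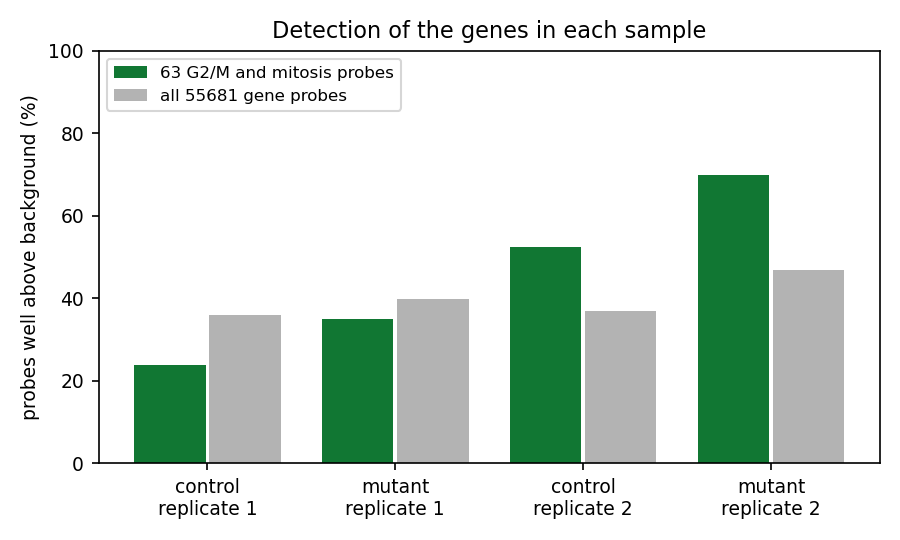
Percentage of probes well above background in each of the 4 samples, for the 63 G2/M and mitosis probes (green) and for all 55681 gene probes (grey). The green bars run from 23.8% in the control of replicate 1 to 69.8% in the mutant of replicate 2 and lie above the grey bars in replicate 2 only.

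A probe was tested with limma when it was well above background in at least 1 channel on both arrays. This held for 21 probes of 18 genes, so the tests below speak of these 18 and not of all 43. None passed at an adjusted p under 0.05, while 0.421% of the 17110 genes tested were called higher in the mutant and 0.0117% lower. At an unadjusted limma p under 0.05 there were 3, Spc25 and Mad2l1 higher and Pbk lower, where 9.29% of all genes were higher at that level and 3.38% lower. With Agilent's processed signals and with an offset of 0 the number past an adjusted p of 0.05 was again 0, as it was over all genes, and 3 genes were at an unadjusted p under 0.05, beside 1860 and 2013 of all genes. Signs were as follows: 4 genes were higher in the mutant on both arrays (22.2%, against 33.1% of all tested genes), 10 were lower on both (55.6%, against 25.1%) and 4 were mixed. Of the 4 higher, Cdca8 and Cenpe entered on the replicate 1 array through the mutant channel alone; where both channels had to be above background 2 of 13 were higher and 8 lower, against 30.3% and 27% of all genes. The median log2 ratio over the 18 genes was -0.013 in replicate 1 and -0.20 in replicate 2, beside 0.022 and 0.029 over all tested genes. With processed signals the replicate 1 median was 0.12 (all genes -0.017), and with the mean of a gene's probes 0.058 (all genes 0.022), so its side of the all-gene median was not stable. The sign depended on the scaling too. With each array centred on its median in place of loess, 15 of the 18 were higher on both arrays and 0 lower, at medians of 0.25 and 0.64, but the medians of all tested genes were then themselves 0.42 and 0.89, and 88.5% of all genes were higher on both.

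**Figure D3:**
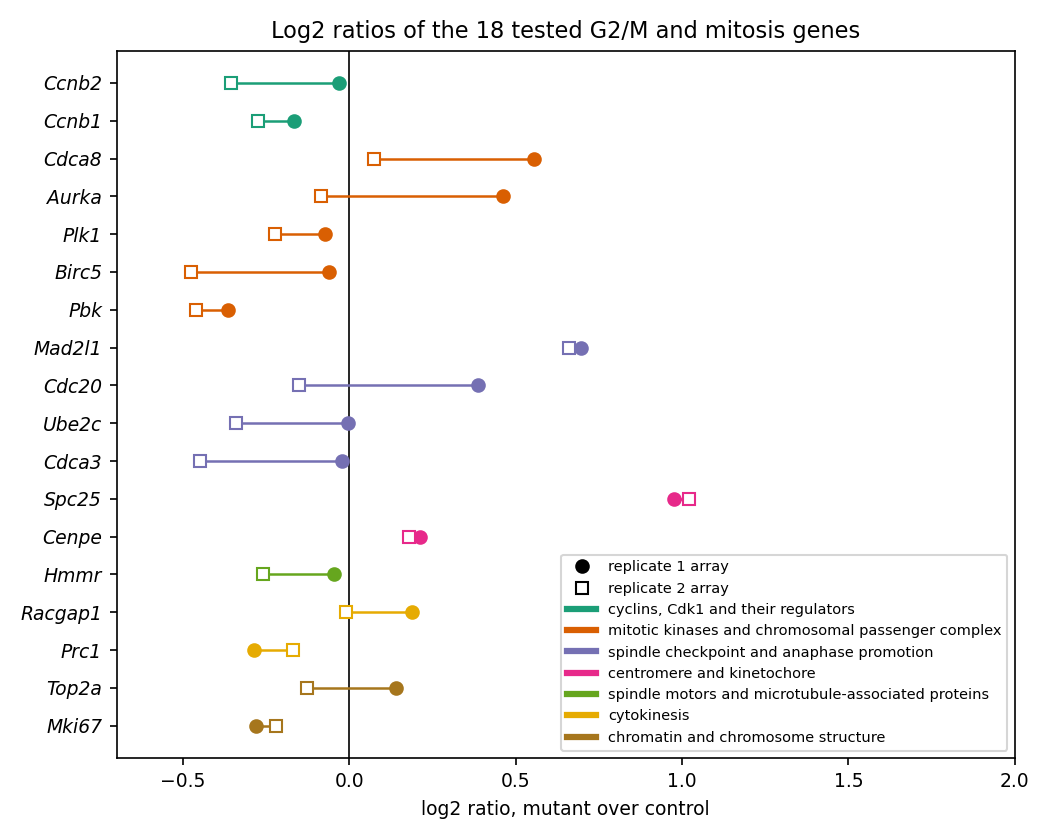
Log2 ratios of mutant over control on the replicate 1 array (filled circles) and the replicate 2 array (open squares) for the 18 tested genes, 1 row per gene, joined by a line and coloured by role. After loess, only Spc25, Mad2l1, Cdca8 and Cenpe lie above 0 on both arrays. With median centring in place of loess 15 of the 18 do, as do 88.5% of all tested genes.

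Among the cyclins and Cdk1, the engine that drives entry into mitosis, the B-type cyclins were the only genes tested. Ccnb1, the main mitotic cyclin (probe on chromosome 13, 101548722 to 101548781, mm9), had log2 levels of 6.67 and 7.35 in the control samples of replicates 1 and 2 and of 6.50 and 7.07 in the mutant samples. The mutant sample was the lower in each pair, but the control of replicate 1, which was not above background, lay below the mutant of replicate 2, so the groups overlapped. Its ratios were -0.17 and -0.28, a mean of -0.22 ± 0.078 (SD over 2 arrays; adjusted p = 0.611 by limma). Ccnb2, the B-type cyclin associated with the Golgi, had control levels of 7.28 and 7.96 and mutant levels of 7.25 and 7.60, with ratios of -0.030 and -0.36 (mean -0.19 ± 0.23, SD over 2 arrays; adjusted p = 0.694 by limma). The pair of replicate 1 was nearly level, and again the groups overlapped. With median centring both genes turned to mean ratios above 0, at 0.16 and 0.38. The medians of all tested genes were then 0.42 and 0.89 on the 2 arrays.

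Cdk1, the kinase of these cyclins, was above background in both samples of replicate 2 and in neither of replicate 1, by the brightest of 3 probes, and was not tested. That probe (chromosome 10, 68801072 on, mm9) read 6.28 and 6.89 in the controls and 6.45 and 6.81 in the mutants, ratios of 0.17 and -0.08. In replicate 2 the pair was nearly level, and the readings of replicate 1, not above background, have no order. Foxm1, the transcription factor that activates many of the 43 genes in G2, was likewise above background in replicate 2 only. The brighter of its 2 probes read 6.57 and 6.94 in the controls and 6.27 and 6.43 in the mutants, with ratios of -0.30 and -0.51. In replicate 2 the mutant was below the control, and in replicate 1 both readings were below the detection limit, so the groups were not ordered. Its other probe, above background in no sample, gave 0.36 and -0.03. Of the rest of this group, Ccna2 (cyclin A2) and Ccnf (cyclin F, which targets proteins for destruction) were above background in both samples of replicate 2, and Cks2, a small Cdk-binding protein, in its mutant sample alone. Cdc25c, the phosphatase that releases Cdk1 from inhibition, was above background in none.

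Of the mitotic kinases and their partners, 5 of 9 genes were tested, and Pbk had the lowest mean ratio of the 18. Pbk, a mitotic kinase gene (chromosome 14, 66436224 to 66436283, mm9), read 6.96 and 7.48 in the controls and 6.60 and 7.02 in the mutants. The mutant was lower in both pairs, though the mutant of replicate 2 lay just above the control of replicate 1. The ratios were -0.36 and -0.46, a mean of -0.41 ± 0.069 (SD over 2 arrays; adjusted p = 0.329 by limma), and the adjusted p ran from 0.226 to 0.991 over the alternatives. With median centring the mean ratio was 0.0047, with Agilent's processed signals -0.93 and with an offset of 0 -0.74.

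Plk1, which triggers centrosome maturation and mitotic entry, had control levels of 7.11 and 7.70 and mutant levels of 7.03 and 7.48. The ratios were -0.074 and -0.22, a mean of -0.15 ± 0.10 (SD over 2 arrays; adjusted p = 0.750 by limma). Each mutant sample was slightly below its control and the groups overlapped. Birc5 (survivin, a subunit of the chromosomal passenger complex that corrects faulty spindle attachments) had levels of 7.38 and 8.88 in the controls and 7.32 and 8.41 in the mutants. Both samples of replicate 2 were far above both of replicate 1, while the ratios were -0.061 and -0.48 (mean -0.27 ± 0.29, SD over 2 arrays; adjusted p = 0.598 by limma).

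Cdca8 (borealin), another subunit of the passenger complex, pointed the other way from Birc5, with levels of 6.60 and 7.87 in the controls and 7.15 and 7.94 in the mutants. Its ratios were 0.55 and 0.074, a mean of 0.31 ± 0.34 (SD over 2 arrays; adjusted p = 0.553 by limma), and the control of replicate 1 was not above background. Aurka, the kinase of spindle poles, was of mixed sign, at 0.46 and -0.085. Aurkb, the kinase of the passenger complex itself, was above background in no sample: its probe read 5.93 and 5.96 in the controls and 5.85 and 5.77 in the mutants, with ratios of -0.082 and -0.19. Ttk (Mps1, which starts the spindle checkpoint) was above background in none either, and Nek2, a centrosome kinase, and Melk only in the mutant of replicate 2.

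In the group of the spindle checkpoint and of anaphase promotion, 4 of 6 genes were tested, and Mad2l1 was the only one of them higher on both arrays after loess. Mad2l1 encodes Mad2, which holds back anaphase by binding Cdc20 (chromosome 6, 66490836 to 66490895, mm9). It read 7.05 and 7.43 in the controls and 7.75 and 8.08 in the mutants, so both mutant samples lay above both controls. The ratios of 0.70 and 0.66 agree closely between the arrays, with a mean of 0.68 ± 0.026 (SD, n = 2), a 1.60-fold difference that did not pass the test (limma adjusted p = 0.138, from 0.0035 with median centring to 0.394 with separate channels). It passed when all probes were tested without a filter (adjusted p = 0.0477). Its mean ratio was 1.09 with Agilent's processed signals and 0.96 with an offset of 0. The gene's other 2 probes were dimmer and not tested, with ratios of 0.34 and 0.46 on 1 of them and of 0.22 and -0.27 on the other. Checkpoint genes among the further mitosis genes below went both ways. Trip13 (0.45 and 0.54), Mad1l1 (0.092 and 0.43), Zwilch (0.55 and 0.66) and Kntc1 (0.065 and 0.45) were higher on both arrays. Bub3 (-0.12 and -0.085) and Zw10 (-0.15 and -0.022) were lower on both.

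Cdc20, the target of Mad2 and activator of the anaphase-promoting complex, had ratios of mixed sign, 0.39 and -0.15. Ube2c, the ubiquitin-conjugating enzyme of that complex, read 6.70 and 7.36 in the controls and 6.70 and 7.02 in the mutants. Its ratios were -0.0035 and -0.34, a mean of -0.17 ± 0.24 (SD over 2 arrays; adjusted p = 0.737 by limma), and its other tested probe gave 0.35 and -0.47. The control of replicate 1 was not above background by either probe, and the 2 probes disagreed in sign there. Cdca3, which helps to trigger mitotic entry, read 6.82 and 7.47 in the controls and 6.80 and 7.02 in the mutants, with ratios of -0.023 and -0.45 (mean -0.24 ± 0.30, SD over 2 arrays; adjusted p = 0.649 by limma). Bub1 and Bub1b, the checkpoint kinase and its relative BubR1, were above background only in the mutant of replicate 2. Bub1 was spotted 10 times, and its spots ranged in ratio from -0.34 to 0.23 over both arrays, with an SD between spots of 0.14 in replicate 1 and 0.20 in replicate 2.

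Spc25, a subunit of the NDC80 complex that ties kinetochores to microtubules, had the highest ratio of all 18 genes. Its probe (chromosome 2, 69031953 to 69032012, mm9) read 12.32 and 12.51 in the controls and 13.30 and 13.54 in the mutants, so that both mutant samples were above both controls. The ratios were 0.98 and 1.02, a mean of 1.00 ± 0.032 (SD, n = 2), which is a 2.00-fold difference, and it fell just short of the threshold (limma adjusted p = 0.0578). The adjusted p ran from 8.5e-07 with median centring to 0.333 with Agilent's processed signals, and it passed without a filter (0.0109). With processed signals the mean ratio of Spc25 was 0.98 and that of Mad2l1 was 1.09, so Spc25 was then not the highest. With an offset of 0 they were 1.02 and 0.96. The Spc25 probe was also far brighter than the others: the highest level of any other gene among the 18 was 9.31. Of the other subunits of the same complex, Spc24, from the list of further mitosis genes below, was tested, with ratios of 0.64 and 0.31. Ndc80 and Nuf2 were above background only in the mutant of replicate 2, and their ratios ran between -0.42 and 0.18. In RefSeq, Spc25 stands between Nostrin and G6pc2, an islet gene of the glucose-6-phosphatase family. G6pc2 read 13.11 and 13.44 in the controls and 13.13 and 13.50 in the mutants, near the level of the Spc25 probe but with ratios of 0.01 and 0.06, and Nostrin had ratios of 0.35 and 0.16 at levels of 6.80 to 7.20. What RNA the Spc25 probe bound was not tested. Without Spc25, the count of genes higher on both arrays was 3 of 17 and the median of the mean ratios was -0.15, as with it.

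Of the other centromere genes, Cenpe, a kinesin that moves chromosomes to the spindle equator, read 6.76 and 7.33 in the controls and 6.98 and 7.51 in the mutants. Its ratios were 0.21 and 0.18, a mean of 0.20 ± 0.025 (SD over 2 arrays; adjusted p = 0.650 by limma), and the control of replicate 1 was not above background. The mutant was a little higher in each pair, and the groups overlapped. Cenpa, the histone H3 variant that marks centromeres, was above background in both samples of replicate 2, and Cenpf in none.

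Spindle motors and microtubule-binding proteins were the worst covered, with 1 of 9 genes tested. Hmmr, a microtubule-binding receptor of hyaluronan, read 7.66 and 7.99 in the controls and 7.62 and 7.73 in the mutants, with ratios of -0.045 and -0.26 (mean -0.15 ± 0.15, SD over 2 arrays; adjusted p = 0.750 by limma). The mutant samples lay within or below the range of the controls. Aspm, Nusap1, Tpx2 and Kif20a, which organise or act on the spindle, were above background in both samples of replicate 2. Tpx2 was also above it in the mutant of replicate 1, by another probe. Kif11, the motor that pushes spindle poles apart, was above background only in the mutant of replicate 2, and Kif23, Kif2c and Dlgap5 in none.

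Of the cytokinesis genes, Prc1, which bundles the microtubules of the central spindle, read 7.07 and 7.83 in the controls and 6.78 and 7.66 in the mutants. Its ratios were -0.29 and -0.17, a mean of -0.23 ± 0.082 (SD over 2 arrays; adjusted p = 0.598 by limma). The mutant was lower in each pair and the groups overlapped. Racgap1, part of the centralspindlin complex, had ratios of 0.19 and -0.0095 by its brighter probe and of 0.44 and 0.29 by a second, whose position overlaps the first (limma adjusted p = 0.869 and 0.399). Ect2, the exchange factor that Racgap1 recruits, was above background in both samples of replicate 2.

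The widely used proliferation marker Mki67 (Ki-67, a coat protein of mitotic chromosomes; chromosome 7, 142881591 to 142881650, mm9) was tested by 2 probes. The brighter read 7.86 and 9.31 in the controls and 7.58 and 9.09 in the mutants, so both samples of replicate 2 lay far above both of replicate 1. The ratios were -0.28 and -0.22, a mean of -0.25 ± 0.041 (SD over 2 arrays; adjusted p = 0.556 by limma), and its second tested probe gave 0.092 and -0.080. Top2a, the topoisomerase that untangles sister chromatids, read 6.39 and 6.84 in the controls and 6.53 and 6.71 in the mutants. Its ratios were of mixed sign, 0.14 and -0.13, a mean of 0.0057 ± 0.19 (SD over 2 arrays; adjusted p = 0.992 by limma). The control of replicate 1 was not above background for Top2a. Neither gene passed the test.

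The difference that most of the 18 genes shared was between the replicates, not the genotypes. After quantile normalization between the arrays, 18 of 18 had a higher control level in replicate 2 than in replicate 1, against 49% of all tested genes, and 17 of 18, all but Racgap1, had a higher mutant level there, against 51.3%. The median difference was 0.65 between the controls and 0.38 between the mutants on the log2 scale, beside -0.0066 and 0.0081 over all tested genes, and the largest between the controls was that of Birc5, 7.38 against 8.88. For 16 of the 18 the 2 controls differed by more than the mean ratio of mutant over control. The same count was not made over all tested genes, so it cannot be read as particular to these 18. A mean ratio also lies near 0 where the arrays differ in sign, as for Top2a, so the 2 measures are unlike. With 1 sample of each genotype per replicate, this difference has no replicate check.

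**Figure D4:**
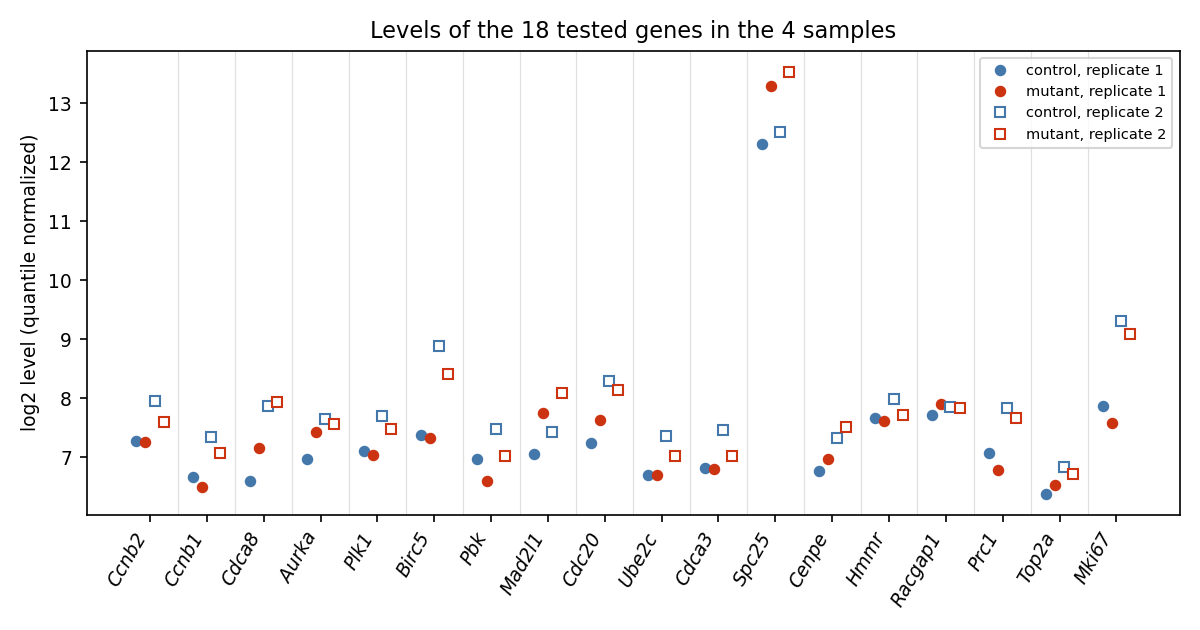
Log2 levels, quantile normalized between the arrays, of the 18 tested genes in the control (blue) and mutant (red) samples of replicate 1 (filled circles) and replicate 2 (open squares). Squares lie above circles of the same colour for all 18 genes in the controls and for all but Racgap1 in the mutants, and Spc25 lies at 12.32 to 13.54, above a highest level of 9.31 for the others.

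Markers of other cells also differed between these samples. Islet endocrine markers were above background in all 4 samples (14 of 14). The log2 of their summed level was 19.56 and 19.46 in the controls of replicates 1 and 2 and 19.70 and 20.15 in the mutants. On both arrays 3 were higher and 1 lower (33.1% and 25.1% of all tested genes), and 10 were of mixed sign. Markers of stellate cells and fibroblasts were above background for 7 and 9 of 10 genes in the controls of replicates 1 and 2 and for 10 of 10 in both mutants. The log2 of their summed level was 11.13 and 13.17 in the controls and 13.48 and 14.95 in the mutants. Of the 10, 6 passed the test as higher in the mutant, against 0.421% of all tested genes (0 under the 5 alternatives in which no gene passed). On the same scale the 13 acinar markers summed to 20.14 and 21.43 in the controls and 20.65 and 16.79 in the mutants. The 10 leukocyte markers summed to 13.45 and 13.18 in the controls and 13.28 and 13.29 in the mutants. The sums were 10.90 and 11.19 in the controls and 11.73 and 12.16 in the mutants for the 8 duct markers. For the 9 endothelial markers they were 13.16 and 13.27 against 13.22 and 13.31. As higher, 2 of 7 tested duct markers and 1 of 9 endothelial markers passed, against 0.421% of all tested genes. Cftr of the duct list was above background in no sample. The sums of fibroblast and duct markers were thus higher in replicate 2 for each genotype and in the mutant of each pair. The endothelial sums had the same order but were nearly level. Gene by gene, 8 of the 9 endothelial markers were higher in the mutant on both arrays and 1 lower (33.1% and 25.1% of all tested genes). Their median log2 ratios were 0.46 and 0.58. The acinar sum was higher in the mutant in replicate 1 and far lower in replicate 2. The part of any of these cells in the values of the mitosis genes was not tested.

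The rest of the mitotic programme was read from 113 further G2/M and mitosis genes. Of these 73 were tested and 0 passed. After loess 37 were higher and 12 lower on both arrays, with median ratios of 0.09 and 0.13. Over all tested genes 33.1% were higher and 25.1% lower on both, with medians of 0.022 and 0.029. The highest mean ratios of 1 sign were those of Stmn1, a microtubule destabiliser (1.06 ± 0.35, limma adjusted p = 0.0858), Cks1b, a Cdk-binding protein (0.81 ± 0.24, 0.125) and the centromere gene Cenph (0.73 ± 0.19, 0.139; SD, n = 2 each). The lowest were Anapc2 (-0.41), Cenpc1 (-0.23) and Ube2s (-0.22). After loess the counts of the 2 lists of mitosis genes thus leaned to opposite sides, 10 of 18 lower here and 37 of 73 higher there. With median centring 88.5% of all genes were higher on both arrays. The difference between the lists was not tested.

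Of the 16 genes of the DREAM and MuvB complexes, NF-Y and the Rb family, which govern these promoters, all were tested and 0 passed. On both arrays 11 were higher and 2 lower, where 33.1% of all tested genes were higher and 25.1% lower. Lin9, a MuvB subunit, had ratios of 0.71 and 0.61 (mean 0.66 ± 0.071, SD over 2 arrays; adjusted p = 0.151 by limma), and Rbl1, which encodes p107, 0.53 and 0.65 (0.59 ± 0.085; 0.187). Lin54, the MuvB subunit that reads the CHR, had a mean of 0.43. Mybl2, which encodes B-MYB, had ratios of 0.02 and 0.04. The lowest of 1 sign were Rbbp4 and E2f5, at means of -0.044 and -0.039.

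Genes of G1/S and DNA replication, the earlier step of the cycle, are given for contrast. Of 51 genes 40 were tested, and 5 passed as higher in the mutant after loess, against 0.421% of all tested genes. The 5 were the helicase genes Mcm2 (mean 1.26), Mcm4 (1.51), Mcm5 (1.24) and Mcm6 (1.25) and the loading factor Cdt1 (1.19), at limma adjusted p from 0.0299 to 0.0471. These calls were lost, as were all others, with processed signals, an offset of 0, a trended robust prior, separate channels or the mean of a gene's probes. On both arrays 34 of the 40 were higher after loess and 0 lower, with medians of 0.39 and 0.49. Of the 18 mitosis genes 4 were higher and 10 lower, with medians of -0.013 and -0.20. Of all tested genes 33.1% were higher and 25.1% lower, with medians of 0.022 and 0.029. These counts stand side by side, and the difference between the lists was not tested.

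**Figure D5:**
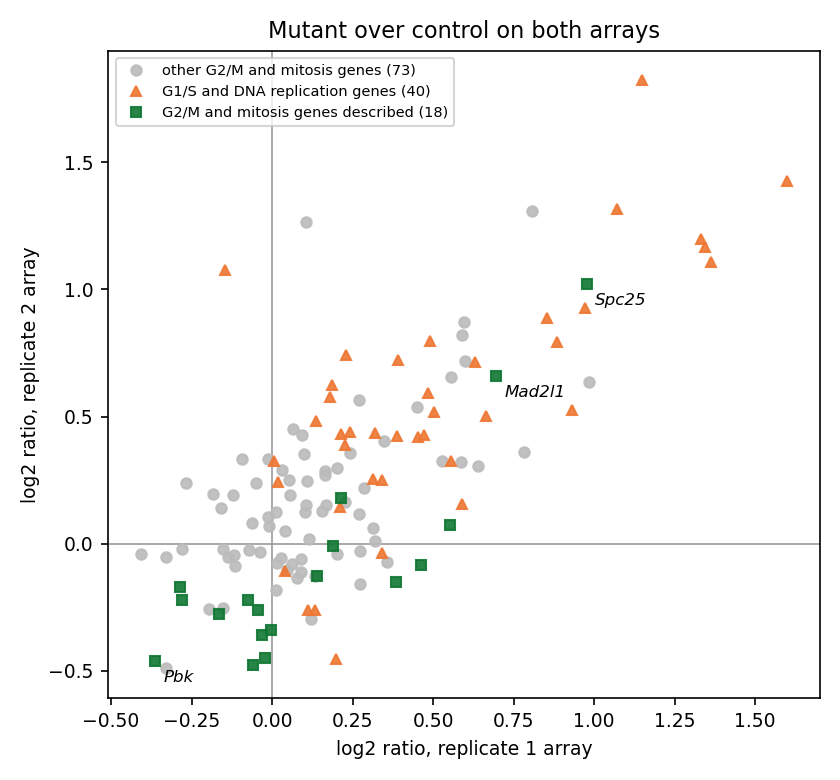
Log2 ratio of mutant over control on the replicate 1 array (x axis) and on the replicate 2 array (y axis) for each tested gene of 3 groups, with the number of genes in brackets. After loess, the 18 mitosis genes described (green) lie mostly below 0 on the y axis, with Spc25, Mad2l1, Cenpe and Cdca8 above. The G1/S and DNA replication genes (orange) lie mostly above 0 on both axes. With median centring in place of loess 15 of the 18 mitosis genes lie above 0 on both, as do 88.5% of all tested genes.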

How the data were processed

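Deposited intensity values are, per the file headers, each spot's mean signal and median local background in each channel. The deposited log10 ratios, red (mutant) over green (control), come from processed signals of Agilent Feature Extraction 10.7.3.1, per the file headers and the submitters' processing notes. The authors' series table holds the same log10 ratios (largest difference 0, column medians 0 and 0).

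Here signals were corrected with normexp (offset 50) and loess (span 0.3, control spots at weight 0) in limma 3.58.1 (R 4.3.3), giving log2 ratios from the deposited intensities; the offset draws dim ratios towards 0. Levels are the 2 channels after quantile normalization of mean intensity between arrays. The 2 ratios were tested against 0, two-sided, by lmFit and eBayes over 22263 probes (79 higher and 3 lower at a Benjamini-Hochberg adjusted p under 0.05; 1 residual and 4.89 prior degrees of freedom). Saturated gene spots numbered 0, and 4 non-uniform spots per array were left out. The step was tested on simulated data. The brightest tested probe stood for a gene. Alternatives were Agilent's processed signals, offset 0, median centring, other filters, a trended robust prior, separate channels, the mean of a gene's probes, and each array alone. Leaving out Spc25 was chosen after seeing the data.

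The genes and lists were chosen with earlier results of these data known. Every tested gene of the 43 is named with its ratios, in full for 11 well-known genes and the 1-signed genes of largest mean ratio. Other lists name the genes past the test, or else the 3 highest and 3 lowest of 1 sign. Nostrin, G6pc2, Mybl2, Spc24, Trip13, Mad1l1, Zwilch, Kntc1, Bub3 and Zw10 were named after their values were seen. One marker list is not reported here. Promoters are RefSeq's (GRCm38.p6), matched by symbol for 35 of 43 genes. Probe positions are mm9, and their place in exons was not analysed here.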

Additional observations from a re-analysis of the deposited data

How the results depend on the processing

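The count of 82 probes past the test, out of 22263, was 6735 with median centring, 0 with an offset of 0, with processed signals, with a trended robust prior and with separate channels, and 355 without a filter. With the mean of a gene's probes 0 of all genes passed. Of the mitosis genes, 0 passed except with median centring (3: Spc25, Mad2l1 and Cdca8 at 1.94, 1.26 and 0.85) and without a filter (2: Spc25 and Mad2l1). The number higher on both arrays, 4, was 15 with median centring, where 88.5% of all genes were higher on both. It was 2 of 13 when both channels had to be above background and 8 of 43 without a filter. The number lower on both, 10, was 0 with median centring and 8 of 13 with both channels above background. Without a filter it was 20 of 43, where 29.1% of all genes were higher on both and 26.7% lower. With the mean of a gene's probes 5 were higher and 9 lower, against 33% and 25.3% of all genes. With processed signals 3 were higher and 8 lower, against 28.6% and 30.8%. The median of the mean ratios, -0.15, was 0.43 with median centring, and -0.20 and -0.013 on single arrays, which allow no test. Median centring turned 10 genes to means above 0: Birc5 (0.39), Ccnb1 (0.16), Ccnb2 (0.38), Cdca3 (0.18), Hmmr (0.47), Mki67 (0.48), Pbk (0.0047), Plk1 (0.37), Prc1 (0.29) and Ube2c (0.22). Under it the medians of all tested probes were 0.39 and 0.84, and the 18 genes' medians lay 0.17 and 0.25 below those of all genes. On the replicate 2 array alone Aurka (-0.085), Cdc20 (-0.15), Racgap1 (-0.0095) and Top2a (-0.13) were below 0, on the replicate 1 array alone at 0.46, 0.39, 0.19 and 0.14. The cause of these changes was not tested. Signal over background limits the comparison: 25 of the 43 genes could not be tested.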

Other observations

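Over both lists of mitosis genes, the 42 tested genes whose RefSeq window holds CHR letters had median log2 ratios of 0.05 and -0.04 on the 2 arrays, with 14 higher and 16 lower on both. The 34 without such letters had medians of 0.10 and 0.15, with 19 higher and 5 lower on both. Over all tested genes 33.1% were higher and 25.1% lower on both, so the count of higher genes with CHR letters was near that share. The 8 genes with an E2F site, all from the further list, had medians of 0.20 and 0.17, with 5 higher and 0 lower on both. These classes were drawn after the ratios were seen, and no test was made of the difference.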
